A study of Mus musculus with 24 samples.

Results

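Histone genes were taken as all genes whose symbol begins with Hist1h, Hist2h, Hist3h, Hist4h, H1f, H2af or H3f, or a newer name of these families, and that reached 1 RPKM (reads scaled by gene model length and library size) in 1 or both RNA-seq libraries. Of 72 histone genes in the tables, 64 met this minimum, among 10436 genes that did so out of 22371. The 64 members comprised 49 core histone genes (17 H2A, 14 H2B, 7 H3 and 11 H4), 5 linker H1 genes and 10 variant histone genes. Just below the minimum lay Hist4h4 (0.334 RPKM untreated and 0.863 with vitamin C), Hist2h4 (0.521 and 0.755) and Hist3h2ba (0.575 and 0.0346). Just above it lay Hist1h4j (1.02 and 1.05), Hist1h2be (0.923 and 1.33) and Hist1h2bp (1.67 and 1.73). The other 5 genes below it included H1fnt and H1foo, which had 0 reads in both libraries.

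The cells came from mouse bone marrow and had been immortalized by HOXA9, a homeobox factor active in early blood cells. They carried a vector for IDH1 R132H, a mutant isocitrate dehydrogenase that makes the metabolite hydroxyglutarate, and grew with interleukin-3, interleukin-6 and stem cell factor. An RNA-seq library came from untreated cells and another from cells given vitamin C to 0.345 mM at 0, 24 and 48 h and harvested at 72 h. The same untreated and vitamin C groups had ChIP-seq peak lists and, with a region list attached to untreated IDH1 wild-type cells, DNA methylation lists. The mutant enzyme came from a vector in immortalized cells, and no RNA library of IDH1 wild-type or vector-free cells was used here. The harvest time of untreated cells is not given in the labels.

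Histones package DNA into nucleosomes. Core histones H2A, H2B, H3 and H4 form the nucleosome, and linker histone H1 binds the DNA between nucleosomes. Most core and linker genes lie in clusters, are transcribed in S phase and give mRNAs that end in a stem-loop instead of a poly(A) tail. Most variant histone genes stand alone, are expressed through the cell cycle and give polyadenylated mRNAs, and some clustered genes can also make a polyadenylated, longer transcript. These libraries were made from polyA RNA by a strand-specific protocol, and polyadenylated and stem-loop transcripts of a gene cannot be told apart in these tables.

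The untreated library held 86804487 reads assigned to genes and the vitamin C library 111453443. Members had between 111 and 116645 reads over both libraries. Each group had 1 library, so no test between groups was possible and differences have no replicate check. A ratio of RPKM is given with a 95% interval, exact for the binomial split of its reads between the libraries, which covers counting error only. For the log2 change, 0.5 was added to both RPKM values before the ratio of vitamin C to untreated was taken, so the change of low genes is understated. A gene counted as past 2-fold where this value reached 1 or −1. The median over all 10436 measured genes was −0.04.

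Marker levels set the tissue label beside the data. Myeloid progenitor markers were all measured (9 of 9), with Mpo at 796 and 131 RPKM and Kit, the receptor of stem cell factor, at 32.1 and 5.07 RPKM, untreated and with vitamin C in that order. Their summed level was 3929 and 2220 RPKM, and 3 of 9 (Mpo, Kit and Prtn3) were at least 2-fold lower. The list did not move as 1: Cd34 was higher, at 299 and 498 RPKM, and Ptprc was at 65.1 and 61.2 RPKM. Cd34 was the only 1 of the 9 with a log2 change above 0. The summed level was 2112 and 2850 RPKM for mast cell and basophil markers (6 of 7 measured, 2 at least 2-fold higher), 220 and 452 RPKM for macrophage markers (5 of 6 measured, 2 higher) and 1309 and 1461 RPKM for erythroid markers (4 of 8 measured, 2 higher, Alas2 at 0 in both). The B cell genes Pax5, Cd79a, Cd79b and Ebf1 and all fibroblast markers were below 1 RPKM, and Pax5, Col1a2 and Dcn had 0 reads. Of T cell markers only Lck was measured, and Cd3e and Cd2 were at 0. Whether these shifts in marker level have a part in the histone values was not tested. Fewer cells of a type and less RNA per cell cannot be told apart in bulk samples.

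With vitamin C, 8 of 64 histone genes (12.5%) were at least 2-fold higher and 4 (6.25%) at least 2-fold lower, beside 2.38% and 1.92% of all measured genes. The 8 higher genes were Hist1h2bg, Hist1h1c, Hist1h2ac, Hist1h2bq, Hist1h2br, Hist1h1d, Hist2h2aa2 and Hist1h1a. Of these, Hist1h1d and Hist1h1a were below 1 RPKM untreated and became members only through the vitamin C library. The 4 lower genes were H1fx, Hist1h3c, Hist1h2ag and Hist1h4b. Over the whole family the differences were spread evenly about 0: the median log2 change was 0.00, with 32 members above 0 and 32 below, and summed RPKM was 1280 and 1320. The counting interval excluded 1 for 50 members and spanned it for 14. The same count over all measured genes was not made, so this is not a result about histone genes. At this depth the interval excludes 1 for small differences too, as for H2afz at a ratio of 0.980 (0.961 to 0.999).

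**Figure D1:**
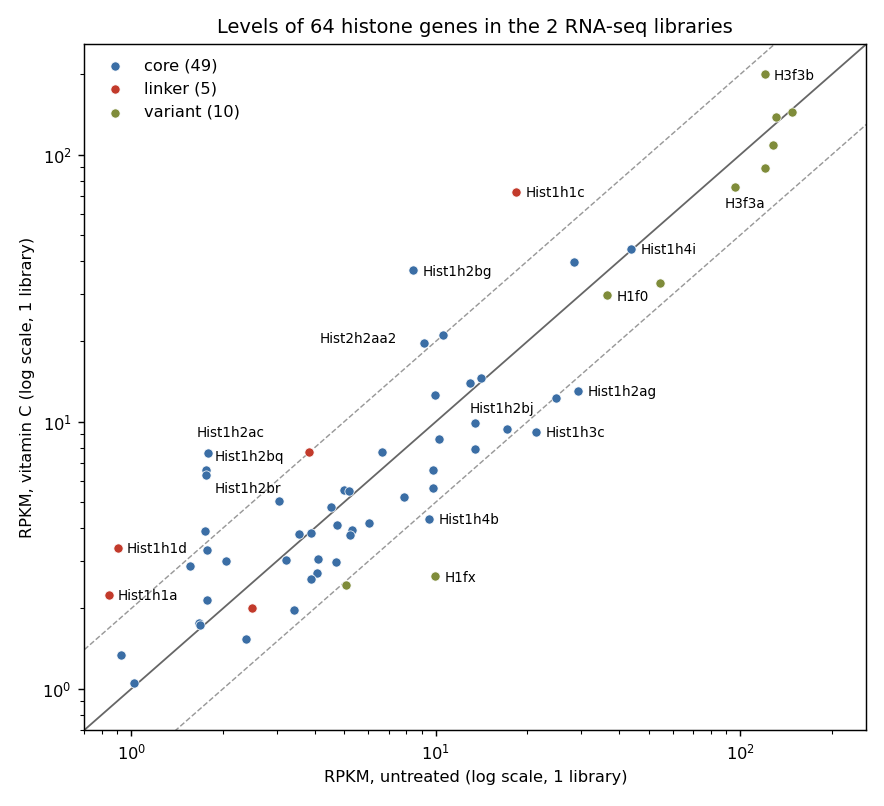
Levels of the 64 histone genes in RPKM, untreated library on the x axis and vitamin C library on the y axis, both on log scales, with 1 point per gene coloured by class; the solid line marks equal levels and the dashed lines a ratio of 2. Hist1h1c and Hist1h2bg stand above the upper dashed line at 72.8 and 36.9 RPKM with vitamin C, and H1fx lies below the lower one at 2.64 RPKM.

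The 3 classes differed in level and in direction. In these polyA libraries the 10 variant genes carried most of the histone signal, 851 RPKM untreated and 825 with vitamin C, a ratio of 0.970. Stem-loop mRNA is not captured by its tail, so this is not the share of all histone transcripts. Summed core histone RPKM was 403 and 407, a ratio of 1.01 with a counting interval of 0.989 to 1.03. Summed linker RPKM was 26.5 and 88.1, a ratio of 3.33 (3.19 to 3.48), and 1.90 without its highest member Hist1h1c. The median log2 change was 0.03 over core genes (5 of 49 at least 2-fold higher, 3 lower), 1.04 over linker genes (3 of 5 higher, none lower) and −0.32 over variants (none of 10 higher, 1 lower). The linker genes Hist1h1a and Hist1h1d were below 1 RPKM untreated and met the minimum only with vitamin C. By the rule they could only lie above 0, and the linker median is the value of Hist1h1a. Within the core class the median was 0.05 for H2A, 0.15 for H2B, −0.02 for H3 and −0.39 for H4. Summed H2B RPKM was 101 and 134, a ratio of 1.33 (1.28 to 1.38), whereas summed H3 was 41.0 and 30.3, a ratio of 0.737 (0.693 to 0.785), and summed H4 was 110 and 94.8, a ratio of 0.861 (0.823 to 0.900). The H3 value rested on Hist1h3c: without it the ratio was 1.07.

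**Figure D2:**
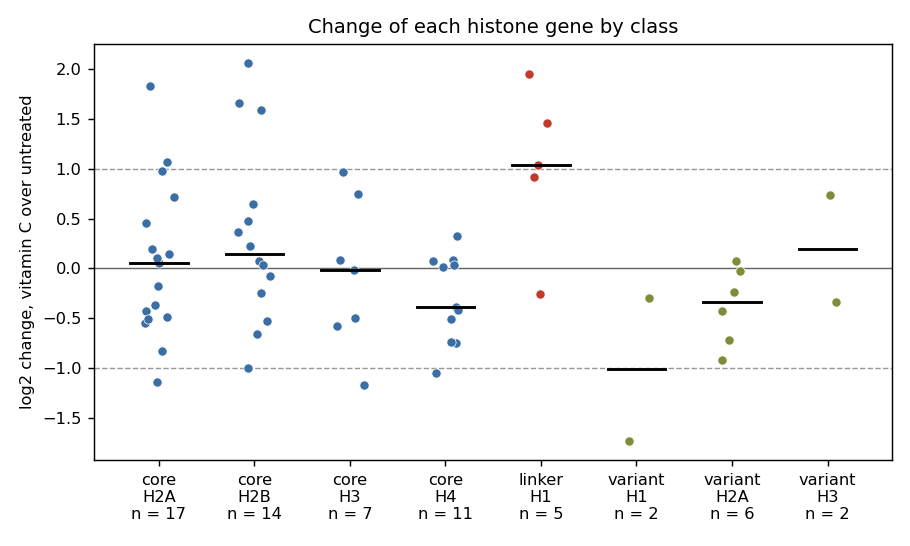
Log2 change (vitamin C over untreated) of each histone gene by class and histone type, 1 point per gene, with black bars at the group medians and dashed lines at 2-fold. Linker genes have the median of 1.04 and 4 of 5 points above 0, while 8 of 10 variant genes lie below 0. The linker genes Hist1h1a and Hist1h1d reached 1 RPKM only with vitamin C.

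Linker H1 genes of the cluster shifted in level and in share. Hist1h1c (RefSeq symbol H1f2) stood at 18.4 RPKM in untreated cells against 72.8 with vitamin C, a ratio of 3.96 (interval 3.78 to 4.15) on 2086 and 10556 reads. Hist1h1d (H1f3) was at 0.903 and 3.37 RPKM, a ratio of 3.73 (3.25 to 4.29). Hist1h1a (H1f1) was at 0.843 and 2.25 RPKM, a ratio of 2.68 (1.90 to 3.77) that rests on 46 and 156 reads. These 3 genes were higher in the vitamin C library by at least 2-fold on the log2 scale with the pseudocount. Hist1h1e (H1f4) was at 3.83 and 7.69 RPKM and, with a log2 change of 0.92, lay just inside the limit. Hist1h1b (H1f5) went the other way, at 2.49 and 2.01 RPKM, but its interval of 0.636 to 1.04 spans 1. The 2 solitary linker variants were lower with vitamin C. H1f0, the linker histone known to accumulate in resting and differentiated cells, was at 36.6 and 29.7 RPKM (ratio 0.812, interval 0.784 to 0.841). H1fx (H1f10) was at 9.95 and 2.64 RPKM, 3.77-fold lower, with a ratio interval of 0.229 to 0.305, the lowest log2 change of all members at −1.73. Of the summed RPKM of these 7 H1 genes, H1f0 took 50.2% untreated and 24.7% with vitamin C, Hist1h1c 25.2% and 60.4%, and H1fx 13.6% and 2.19%. In RPKM, H1f0 was thus the highest of the 7 untreated, and Hist1h1c with vitamin C. In these polyA libraries mRNA that ends in a stem-loop is not captured by its tail. These values are therefore not the shares or ranks of all H1 transcripts.

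Of the 14 H2B genes, whose products pair with H2A in the nucleosome, 3 were at least 2-fold higher and none lower. Hist1h2bg was at 8.44 and 36.9 RPKM, a ratio of 4.37 (3.92 to 4.89) and the highest log2 change of the family at 2.06. Hist1h2bq was at 1.75 and 6.62 RPKM and Hist1h2br at 1.76 and 6.32 RPKM. These last 2 genes share all 300 bases of their promoter windows and had 283 reads each untreated, so reads could be split between the copies and each value is uncertain. Hist1h2bc, the most abundant H2B gene in both libraries, was at 28.4 and 39.6 RPKM, a ratio of 1.39. Hist1h2bj was the next most abundant untreated and was lower with vitamin C, at 24.9 and 12.2 RPKM, with a log2 change of −0.997 that just misses 2-fold. Of summed H2B RPKM, Hist1h2bg took 8.35% untreated and 27.6% with vitamin C, and Hist1h2bj 24.7% and 9.14%. The other 9 H2B genes had log2 changes between −0.66 and 0.64.

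Of the 17 core H2A genes, 2 were at least 2-fold higher and 1 lower. Hist1h2ac was at 1.78 and 7.62 RPKM, a ratio of 4.27 (3.79 to 4.82). Hist2h2aa1 was at 10.5 and 21.2 RPKM and Hist2h2aa2 at 9.18 and 19.8 RPKM. These neighbours are known as near-identical copies, had 413 and 386 reads untreated and 1060 and 1062 with vitamin C, and their values are uncertain where reads match both. Hist1h2ag, the highest core H2A gene untreated, was at 29.4 RPKM untreated and 13.0 with vitamin C, which is 2.26-fold lower (interval of the ratio 0.399 to 0.492). Hist1h2al, which RefSeq lists as a transcribed pseudogene, was at 2.05 and 3.01 RPKM. The other 12 core H2A genes had log2 changes between −0.83 (Hist1h2ae) and 0.72 (Hist2h2ac). Of summed H2A RPKM in these polyA libraries the 6 H2A variants held 79.6% untreated and 77.7% with vitamin C. Because mRNA that ends in a stem-loop is not captured by its tail, this is not the share of all H2A transcripts.

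Of 7 core H3 genes, 4 were below 0 on the log2 scale, as were 6 of 11 H4 genes. Hist1h3c was at 21.4 and 9.19 RPKM, a ratio of 0.430 (0.386 to 0.478), and Hist1h4b at 9.54 and 4.34 RPKM, a ratio of 0.455 (0.379 to 0.543). Hist2h3c1 was at 1.74 and 3.89 RPKM and its neighbour Hist2h3c2 at 1.77 and 3.29 RPKM, log2 changes of 0.97 and 0.74. The other 4 H3 genes had log2 changes between −0.58 (Hist1h3a) and 0.08 (Hist1h3e). No H4 gene was 2-fold higher. Hist1h4i alone made up 39.8% of summed H4 RPKM untreated and 46.8% with vitamin C, at 43.9 and 44.4 RPKM, and its interval of 0.950 to 1.08 spans 1. Hist1h4d was at 13.5 and 7.91 RPKM and Hist1h4c at 9.82 and 5.64 RPKM, while Hist1h4n was at 9.92 and 12.6 RPKM. The other 6 H4 genes had log2 changes between −0.51 (Hist1h4f) and 0.08 (Hist1h4a). The clustered H4 genes are known to encode the same protein, so these are differences between gene copies.

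Variant histones, which replace core histones outside S phase or mark particular chromatin, stayed within 2-fold on the log2 scale with the pseudocount, apart from H1fx. The 2 genes of the replacement H3 variant diverged. H3f3b was at 120 and 201 RPKM, a ratio of 1.67 (1.64 to 1.69), and H3f3a at 96.3 and 75.9 RPKM, a ratio of 0.788 (0.774 to 0.802). They are known to encode the same protein, and their summed RPKM was 217 and 276. The H2A.Z genes also differed from each other: H2afz was at 148 and 145 RPKM (ratio 0.980), and H2afv at 54.7 and 33.0 RPKM, 1.66-fold lower. The macroH2A genes H2afy and H2afy2, whose large histones are enriched on silent chromatin, were at 121 and 89.6 RPKM and at 5.08 and 2.45 RPKM, log2 changes of −0.43 and −0.92. The RPKM ratio of H2afy2, 0.482, is itself beyond 2-fold, and the gene passed the limit at a pseudocount of 0.1 RPKM. H2afx, phosphorylated at DNA breaks, was at 131 and 138 RPKM, and H2afj at 128 and 109 RPKM. The ratio of summed variant RPKM was 0.855 without H3f3b.

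By cluster, the Hist1 cluster on chromosome 13 (46 members) had 7 genes at least 2-fold higher and 3 lower, a median log2 change of −0.03 and a summed RPKM of 392 and 430. Without Hist1h1c the ratio of its sums moved from 1.10 to 0.956. It lies in 2 blocks. The 20 genes at chr13:21715711-22043658 summed to 189 and 165 RPKM (2 higher, 1 lower), and the 25 genes at chr13:23531044-23934156 to 201 and 262 RPKM (5 higher, 2 lower), with medians of −0.08 in both, while Hist1h2al lies apart. Among the 25 genes, Hist1h1a, Hist1h1d and Hist1h2be reached 1 RPKM only with vitamin C, so by the rule they could only lie above 0. Hist1h1a and Hist1h1d are among the 5 higher genes. The Hist2 cluster on chromosome 3 lay mostly above 0: 6 of its 7 members were above 0, the median was 0.74, and summed RPKM was 30.4 and 57.0, a ratio of 1.87 (1.76 to 2.00). Of these 7 genes 4 form the duplicated pairs named above and are not independent. Hist3 had 1 member, Hist3h2a, at 6.67 and 7.73 RPKM.

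H2A and H2B genes often lie head to head and share the DNA between their starts. Among the histone genes 10 such pairs were found in the RefSeq annotation (GRCm38.p6), and in 9 both genes were measured, with starts 164 to 268 bp apart and a median of 180 bp. The set of pairs was chosen after single values had been seen. The log2 changes had the same sign in 5 pairs and opposite signs in 4, and were within 0.25 of each other in 3. Hist1h2ae was at 17.1 and 9.39 RPKM while its partner Hist1h2bg was at 8.44 and 36.9 RPKM, a difference of 2.89 on the log2 scale across 180 bp. Hist1h2ao was at 14.1 and 14.6 RPKM beside Hist1h2bq, a difference of 1.61, and Hist1h2ap at 13.0 and 14.0 RPKM beside Hist1h2br, a difference of 1.49. In these 3 pairs the H2B gene was at least 2-fold higher and the H2A gene was not. The pairs of the copies Hist1h2bq and Hist1h2br are not independent of each other. Judged by reads per RPKM, the gene models of these 2 H2B genes were 4.17 and 4.16 times the median length of core and linker genes. Those of their H2A partners were 0.902 and 0.976 times that median. Hist1h2ag and Hist1h2bj were lower together, with log2 changes that differ by 0.15. Hist1h2ak was at 6.04 and 4.18 RPKM and Hist1h2bn at 3.06 and 5.06 RPKM, again with opposite signs.

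**Figure D3:**
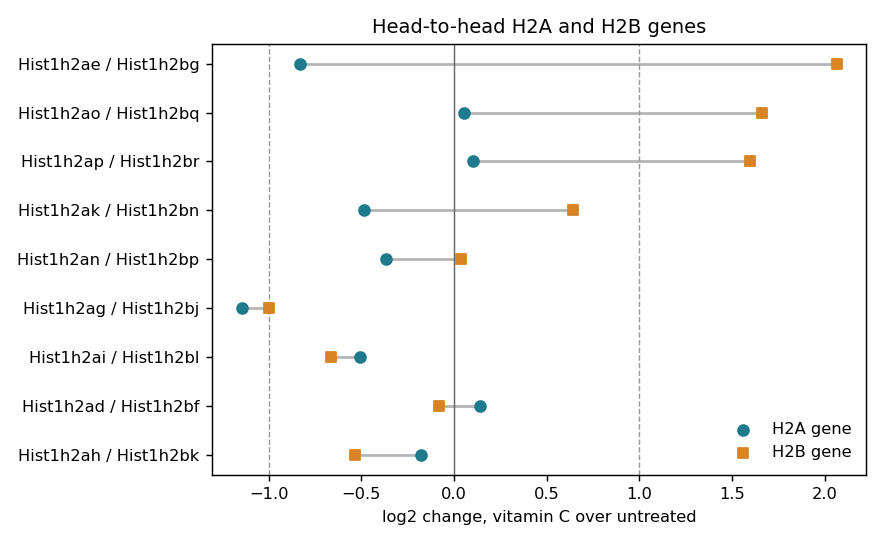
Log2 change (vitamin C over untreated, x axis) of the H2A gene (circle) and the H2B gene (square) of each of 9 head-to-head pairs (y axis), joined by a grey line, with dashed lines at 2-fold. The pair Hist1h2ae and Hist1h2bg is the widest at 2.89, and Hist1h2ag and Hist1h2bj lie together at −1.14 and −0.997.

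The promoter windows of the members that differed by the largest log2 change at 5 RPKM or more show what these genes share in sequence and where they part. They run from 250 bases before to 50 after the RefSeq start (GRCm38.p6), 5′ to 3′ on the strand of the gene. Capitals mark TATAAA (the TATA box core), CCAAT (the core of sites of NF-Y) and ATGCAAAT (the octamer bound by Oct factors, known from H2B promoters), each searched on both strands, so ATTGG is CCAAT read on the other strand, and matches of different motifs may share bases. Hist1h2br has the same window as Hist1h2bq, and Hist1h2bj, added after its value was seen, stands for the pair that was lower together.
Hist1h2bg, chr13:23571150-23571449, plus strand: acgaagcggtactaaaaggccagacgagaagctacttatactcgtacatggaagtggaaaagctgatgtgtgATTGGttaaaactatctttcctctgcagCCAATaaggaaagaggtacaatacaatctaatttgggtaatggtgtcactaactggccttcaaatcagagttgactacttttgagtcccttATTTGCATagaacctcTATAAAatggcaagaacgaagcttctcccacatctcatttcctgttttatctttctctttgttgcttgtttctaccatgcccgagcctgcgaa
Hist1h2bq, chr13:21810150-21810449, minus strand: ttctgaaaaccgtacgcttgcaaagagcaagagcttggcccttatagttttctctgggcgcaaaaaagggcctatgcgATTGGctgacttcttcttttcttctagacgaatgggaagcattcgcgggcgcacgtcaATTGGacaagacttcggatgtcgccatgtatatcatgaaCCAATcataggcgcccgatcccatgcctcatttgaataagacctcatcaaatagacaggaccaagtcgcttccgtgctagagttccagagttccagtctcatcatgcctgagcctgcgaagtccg
Hist1h2bj, chr13:22042948-22043247, plus strand: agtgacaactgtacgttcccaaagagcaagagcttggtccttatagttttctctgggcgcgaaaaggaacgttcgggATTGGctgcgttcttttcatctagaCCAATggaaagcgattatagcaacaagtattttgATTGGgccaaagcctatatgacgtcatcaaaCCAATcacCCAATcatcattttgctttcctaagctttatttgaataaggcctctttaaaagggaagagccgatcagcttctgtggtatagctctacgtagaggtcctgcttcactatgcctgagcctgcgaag
Hist1h2ac, chr13:23683910-23684209, minus strand: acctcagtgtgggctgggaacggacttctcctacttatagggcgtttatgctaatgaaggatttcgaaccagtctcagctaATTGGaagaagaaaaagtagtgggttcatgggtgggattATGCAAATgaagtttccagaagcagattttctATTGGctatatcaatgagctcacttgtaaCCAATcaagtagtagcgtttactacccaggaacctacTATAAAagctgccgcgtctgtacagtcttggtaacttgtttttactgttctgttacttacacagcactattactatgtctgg
Hist1h1c, chr13:23738557-23738856, plus strand: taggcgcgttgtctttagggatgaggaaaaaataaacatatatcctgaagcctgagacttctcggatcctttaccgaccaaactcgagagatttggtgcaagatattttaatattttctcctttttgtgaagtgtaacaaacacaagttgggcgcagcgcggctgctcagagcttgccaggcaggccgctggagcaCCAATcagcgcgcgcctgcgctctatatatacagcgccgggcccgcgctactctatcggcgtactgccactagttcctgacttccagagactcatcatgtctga
H1fx, chr6:87981433-87981732, minus strand: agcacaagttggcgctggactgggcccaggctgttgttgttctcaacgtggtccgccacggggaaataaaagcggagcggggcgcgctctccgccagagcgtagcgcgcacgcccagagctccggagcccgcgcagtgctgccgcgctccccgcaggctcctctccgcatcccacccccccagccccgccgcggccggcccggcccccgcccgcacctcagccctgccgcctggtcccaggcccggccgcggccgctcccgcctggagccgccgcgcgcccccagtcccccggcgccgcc

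In the Hist1h2bg window, TATAAA lies 43 bases and the octamer 59 bases before the Hist1h2bg start, and seen from Hist1h2ae, whose start is 180 bp away on the other strand, they lie 142 and 128 bases upstream, each counted from the first base of the match on the strand of the gene. The shared window of Hist1h2bq and Hist1h2br, and that of Hist1h2bj, held CCAAT on both strands and neither TATAAA nor the octamer. Hist1h2ac held all 3 motifs, with TATAAA 32 bases before its start, and Hist1h1c a single CCAAT 54 bases before its start. The H1fx window held none of the 3. Over the 59 members with a window in the RefSeq promoter table, CCAAT occurred in 81.4%, TATAAA in 50.8% and ATGCAAAT in 18.6%, beside 37.4%, 13.6% and 1.74% of all 32851 windows of that table. CCAAT was in every H2A, H2B, H3 and linker window and in 3 of 11 H4 windows, TATAAA in 8 of 11 H4 windows and 1 of 6 H3 windows, and ATGCAAAT in 6 of 16 H2A and 4 of 12 H2B windows. Of the 9 variant windows 6 held CCAAT, 1 TATAAA and 1 ATGCAAAT. TATAAA was on the strand of the gene in 25 of the 59 windows, and in 9 of these its match nearest the window's end began 35 to 20 bases before the start. Windows of neighbouring genes can overlap, as those of Hist1h2bg and Hist1h2ae do, so that one match can be counted for both genes. A match is a description of letters, not of a bound site.

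Gene model length went along with direction among core and linker genes. Reads per RPKM, which grow with the length the authors divided by, were set relative to the median of the 54 core and linker members. Of these, 9 had a model over 2 times that median, and each of the 9 had a log2 change above 0: Hist1h1c, Hist1h1d, Hist1h2ac, Hist1h2bq, Hist1h2br, Hist2h3c1, Hist3h2a, Hist2h2be and Hist1h2be. Their median was 1.46, 5 of 9 were at least 2-fold higher, and their summed RPKM was 35.7 and 112. Of the 9, Hist1h1d and Hist1h2be reached 1 RPKM only with vitamin C, so by the rule they could only lie above 0. Hist1h2bq and Hist1h2br are copies and not independent. The 45 members with a shorter model had a median of −0.08, with 3 at least 2-fold higher (Hist1h2bg, Hist1h1a and Hist2h2aa2) and 3 lower, and a summed RPKM of 394 and 383. Across the 54 genes, which share 2 libraries, Spearman's rho between relative length and log2 change was 0.50, and 0.42 over the 49 core genes. Over all 64 members rho was 0.31. The 10 variant genes had a median relative length of 3.76, and 8 of them lay below 0. Whether the added reads of core and linker genes lie in a longer, polyadenylated part of their models was not tested, since the tables hold 1 value per gene.

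**Figure D4:**
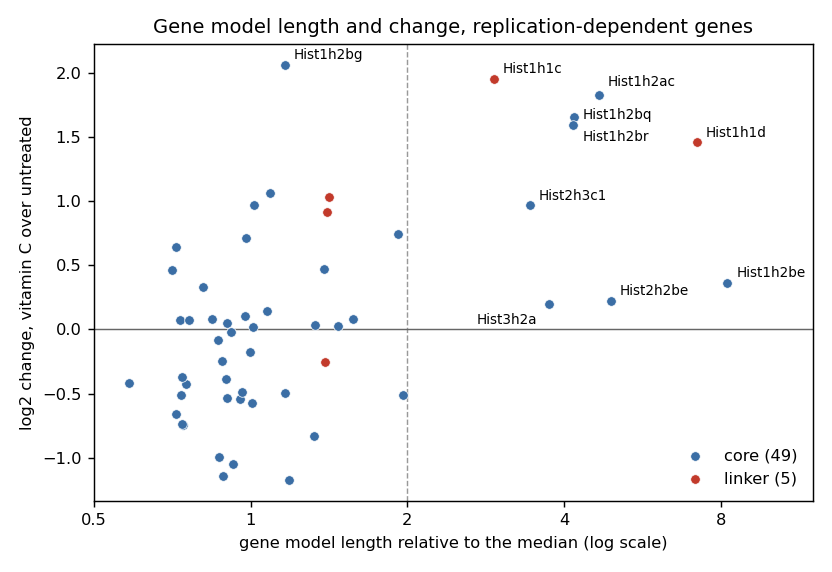
Gene model length relative to the median (x axis, log scale) and log2 change (y axis) of the 54 core and linker genes, 1 point per gene; the dashed line marks 2 times the median length. All 9 genes to its right lie above 0, with a median of 1.46, and Hist1h2bg is the highest gene to its left. Hist1h1d and Hist1h2be, to the right, reached 1 RPKM only with vitamin C.

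Chromatin at the starts was examined in the authors' peak lists, with a gene counted when a peak lay within 1 kb of its start. A start was at hand for 59 members (45 core, 5 linker and 9 variant), all but Hist1h2bc, Hist2h2be, H2afx, Hist1h3a and Hist1h2al. H3K4me3, the mark of active promoters, was listed at 58 of 59 starts in each library (98.3%), beside 96.4% of 8259 measured genes untreated and 96.4% with vitamin C. H3K27ac, found at active enhancers as well as promoters, was listed at the same 56 starts in both (94.9%), beside 91.4% untreated and 90.7% with vitamin C. These shares are near the background and say nothing particular of histone genes. Hist1h2ba, the testis H2B gene, had neither mark, and H1fx and H2afy2 had H3K4me3 without H3K27ac in both libraries. Hist1h2bg, Hist1h1c, Hist1h2ac and Hist1h2bq had both marks in both libraries.

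H3K4me1, which flanks active promoters and marks enhancers, was listed at 32 starts untreated (54.2%, beside 57.8% of measured genes) and 27 with vitamin C (45.8%, beside 47.0%). The net difference of 5 was made of changes both ways: 14 of 59 starts (23.7%) had the peak only untreated, 9 (15.3%) only with vitamin C and 18 (30.5%) in both. Of all 8259 measured genes 26.9%, 16.1% and 30.9% had it so, and the histone gene shares are near these. Those listed only with vitamin C included Hist1h2ac, Hist1h2br, Hist1h1d, Hist1h1e and Hist2h3c1, and 6 of the 9 genes had a log2 change above 0, with a median of 0.92. The 3 below 0 were H2afv (−0.72), Hist1h4f (−0.51) and Hist2h3b (−0.02). Of the 9 genes, Hist1h1d and Hist1h2be reached 1 RPKM only with vitamin C, so by the rule they could only lie above 0. Those listed only untreated included H1fx, Hist1h2ag and Hist1h2bj as well as the higher genes Hist2h2aa2 and Hist1h1a, and the 14 genes had a median of −0.25. Hist1h1a, too, reached 1 RPKM only with vitamin C. The 18 genes with the peak in both libraries had a median of −0.29, below that of the genes listed only untreated. The 18 with it in neither, among them Hist1h2bg and Hist1h2bq, had a median of 0.06. Over all measured genes the median log2 change was −0.04 for starts listed only with vitamin C and −0.06 for those listed only untreated. A link between the peak and direction was not tested. A peak at a gene's start can also lie within 1 kb of its neighbour. Over the cluster spans, H3K4me1 peaks covered 112 and 56.7 kb of the first Hist1 block and 136 and 91.4 kb of the other, against 183 and 108 Mb over the whole list. In the Hist2 span they covered 7.45 and 13.5 kb, the opposite direction. H3K4me3 covered 78.3 and 77.0 kb of the first Hist1 block, 75.7 and 72.9 kb of the other and 17.8 and 17.3 kb of the Hist2 span.

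PU.1 and Runx1, transcription factors of blood cells, were listed at few histone gene starts. PU.1 peaks lay at 13 starts untreated (22.0%, beside 43.7% of measured genes) and 5 with vitamin C (8.47%, beside 19.9%). Runx1 peaks lay at 7 starts untreated (11.9%, beside 27.3%) and 10 with vitamin C (16.9%, beside 47.5%). The lists themselves differ in length, with 61611 and 23522 PU.1 peaks and 3908 and 6250 Runx1 peaks, and the whole-list covered length differs in the same direction, 20.7 and 6.92 Mb for PU.1 and 1.21 and 2.24 Mb for Runx1. The 5 starts that kept PU.1 with vitamin C were H1fx, H2afj, H3f3a, Hist1h2ai and Hist1h2bl, of which the last 2 share a peak. Hist1h2bg and Hist1h2ae shared a PU.1 peak untreated (chr13:23571042-23571598, mm10, over the window printed above) that was not in the vitamin C list. Runx1 was listed in both libraries at H2afv, H2afz, H3f3b, Hist1h2ac and Hist1h4a. No linker gene of the cluster had PU.1 in either library, and Hist1h1a had Runx1 with vitamin C.

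**Figure D5:**
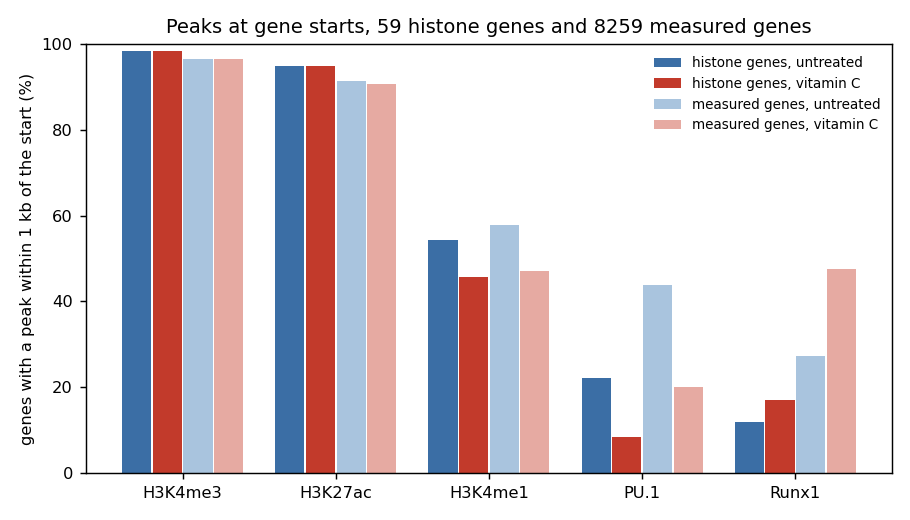
Percent of genes with a listed peak within 1 kb of the start (y axis) for each mark (x axis), with dark bars for 59 histone genes, pale bars for 8259 measured genes, blue for untreated and red for vitamin C. Dark and pale bars are alike for H3K4me3, H3K27ac and H3K4me1, and the dark bars are lower for PU.1 (22.0% and 8.47%) and Runx1 (11.9% and 16.9%).

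DNA methylation lists had few regions at histone genes. Within 5 kb of the 64 members, WGBS deMRs (whole-genome bisulfite sequencing) lay near 7 genes, hMeDIP iHRs (immunoprecipitated hydroxymethylated DNA) near 3, MeDIP deMRs (immunoprecipitated methylated DNA) near 2, the mutant MeDIP list near 1, and MeDIP iMRs and WGBS iMRs near none. The same windows around 10249 measured genes held a region for 20.4%, 20.7%, 15.5%, 15.4%, 7.94% and 7.74% in that order, but most histone genes are short, so their windows span less DNA. H2afy, the longest member by span, had a MeDIP deMR (chr13:56102501-56103500), an hMeDIP iHR (chr13:56084001-56085000) and a WGBS deMR (chr13:56130491-56130601) within it. A WGBS deMR at chr3:96222004-96222244 lay in Hist2h2be and 1124 bp from Hist2h2ac. None of the 12 genes past 2-fold had a region of these lists within 5 kb. Few of the 64 members had one, so this does not set the 12 apart from the others. The lists hold positions without values, and the sources used here do not say which libraries they compare.

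Genes that process histone mRNA and carry histones stayed within 2-fold, as did most measured genes. Over all measured genes 2.38% were at least 2-fold higher and 1.92% lower, with a median log2 change of −0.04. At such shares a list of this size need hold none. Of 20 listed genes of histone mRNA processing 17 were measured, none was past 2-fold in either direction, and the median log2 change was −0.19. Slbp, which binds the stem-loop, was at 14.2 and 17.2 RPKM. Npat, which drives histone gene transcription in S phase, was at 15.2 and 13.0 RPKM, and Casp8ap2 at 11.7 and 11.3 RPKM. The lowest log2 changes of this list were those of Lsm4 (123 and 83.0 RPKM), Gon4l (26.9 and 19.5), Coil (6.93 and 5.05) and Lsm11, a part of the particle that cuts histone mRNA (4.73 and 3.51). All 24 histone chaperones were measured, with none past 2-fold and a median of −0.14. Asf1b was at 26.7 and 31.0 RPKM, Chaf1a at 58.6 and 64.5, Daxx, which deposits the replacement H3 variant, at 22.0 and 27.2, and Hira, which does so at active genes, at 26.7 and 24.1. Their largest log2 changes were those of Srcap (−0.58), Ssrp1 (−0.57), Nap1l4 (0.39) and Rbbp7 (0.39).

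S phase genes, 24 of 24 measured, had none past 2-fold, beside 2.38% higher and 1.92% lower of all measured genes. They had 17 members above 0 and a median of 0.08, beside −0.04 over all measured genes. Rrm2, a subunit of ribonucleotide reductase, had the largest log2 change of them, at 48.2 and 82.6 RPKM (ratio 1.71), followed by Ccne2 (6.49 and 9.94), Ccne1 (6.53 and 9.83) and E2f2 (7.57 and 11.2), and E2f1 was at 22.4 and 26.96. The 16 genes of G2 and mitosis had none past 2-fold and a median of −0.15. Among them Cenpf was at 11.9 and 7.48 RPKM, Bub1 at 18.9 and 26.5, Cdc20 at 73.6 and 56.5, Cenpe at 15.0 and 11.5, and Cenpa, the centromeric H3 variant, at 46.4 and 40.8. Cell cycle inhibitors, 12 of them measured, had none 2-fold lower and a median of 0.32. At least 2-fold higher were 3 of the 12, beside 2.38% of all measured genes. These were Btg2 (1.31 and 9.85 RPKM), Btg1 (11.0 and 28.5) and Cdkn1a (70.2 and 167), and Gadd45a was at 23.9 and 44.7. Of the 12, 9 had a log2 change above 0. Below 0 were Cdkn2b (ratio 0.586), Cdkn2a (ratio 0.840) and Rbl2 (ratio 0.895). The list of inhibitors was chosen with earlier results of these data known. Its share beside that of all measured genes is therefore not a test of enrichment.

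The authors' deposited lists name 450 higher and 221 lower genes, among them 3.93% and 1.72% of all measured genes. The authors' deposited lists held 11 (17.2%) and 5 (7.81%) of the 64 histone genes, and Hist3h2ba, below the minimum of 1 RPKM, was also on the lower list. The 11 listed as higher were the 8 past 2-fold and Hist1h1e, Hist2h2aa1 and Hist2h3c1, and the 5 listed as lower were the 4 past 2-fold and Hist1h2bj. The other 48 members were on neither of the authors' deposited lists, with log2 changes between −0.92 and 0.74.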

How the data were processed

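Polyadenylated RNA of 1 untreated and 1 vitamin C library was used, with ChIP-seq peak and methylation region lists of the same cells, from 18 of 24 samples in 24 groups of 1. The RNA tables hold whole-number read counts per Ensembl gene and RPKM values, both as deposited by the authors. Not given in the sources used here are the tool that counted reads, its treatment of reads that match several copies, and the annotation. Per the submitters' processing notes, build mm10 was used with MACS2 2.1.0.2, Picard, SAMtools (0.1.16, 0.1.8 and 0.1.2), Novoalign 3.02.08, BWA and CASAVA 1.8.2, with no role named. Each peak of a histone mark list has a p-value or q-value, and each PU.1 and Runx1 peak a score, all as deposited by the authors without a definition. These were used only to keep the stronger peaks of a list in an alternative. Repeated intervals in a list were counted once. The authors' lists of higher and lower genes hold symbols and gene IDs and no values. Per table, 3 unnamed columns were not used.

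Symbols came from the Ensembl ID table, which matched 21611 genes, and all 64 members matched a RefSeq gene. With 1 library per group no model across genes was fitted. Ratios of RPKM used the ratio of reads per RPKM between libraries (1.28) and an exact 95% binomial interval, and ratios of summed RPKM a 95% interval from the Poisson error of the reads on the log scale. The calculation was tested on simulated data. Motifs were searched on both strands of RefSeq promoter windows (GRCm38.p6, the assembly of build mm10). Python 3.11.15, pandas 2.3.3, numpy 2.4.6, scipy 1.17.1 and matplotlib 3.10.9 were used.

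The text names every member it describes and the 3 histone genes on each side of the 1 RPKM minimum. It names up to 4 genes of each list with the largest absolute log2 change, and a fixed set from Slbp to Rrm2. Measured cell cycle inhibitors with a log2 change below 0 are named as well. Windows are given for up to 6 members with at least 5 RPKM. The members, lists, alternatives and comparisons were chosen with earlier results of these data known. Alternatives were other pseudocounts, minimum levels, folds and scaling, other promoter distances and the stronger peaks of each list. A comparison of protein sequences was not made here. A marker gene of the lists is not reported here.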

Additional observations from a re-analysis of the deposited data

How the results depend on the processing

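No paired analysis was possible because each group held 1 library. Of 97 recomputed counts, medians and sums, 82 stayed within a set limit and 15 did not. The limit was a factor of 1.5 for counts and counting error for sums. For medians it was an interval of the ranked values across the genes of a list. Such an interval is wide for short lists, and for the 5 linker genes it is their full range, so it could hardly fail. At a fold of 1.5, 15 histone genes were higher and 11 lower. With another pseudocount, minimum or scaling, all 12 genes past 2-fold stayed past it except Hist1h1a and Hist1h4b at a pseudocount of 1 RPKM. A pseudocount of 0.1 RPKM added H2afy2, Hist1h2bj, Hist2h2aa1 and Hist2h3c1, scaling by the median RPKM ratio of 0.969 added the last 2, and no minimum added Hist3h2ba, which has 26 and 2 reads. Leaving out the copies Hist1h2bq and Hist1h2br, an alternative chosen after seeing the data, left the other 10 genes. Of 192 recomputed single gene values 13 moved beyond counting error and none past 2-fold changed sign.

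The ratio of summed RPKM became 1.04 for core and 1.00 for variant genes under median scaling, and 1.90 for linker and 0.855 for variant genes without the highest member. With only the stronger peaks of each list, H3K4me1 was at 11 starts untreated and 10 with vitamin C, PU.1 at 3 with vitamin C, and Runx1 at 2 untreated and 4 with vitamin C. PU.1 was at 23 starts untreated within 2 kb and at 2 with vitamin C within 500 bp. Over the gene span itself, WGBS deMRs were at 3 genes and MeDIP deMRs at 1. The causes were not tested. Depth limits genes such as Hist1h1a, while 1 library per group limits every comparison.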
